A study of Mus musculus with 6 samples.

Results

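The 10 genes described here encode the AP-1 transcription factors of the Fos subfamily (Fos, Fosb, Fosl1 and Fosl2) and of the Jun subfamily (Jun, Junb and Jund), the related stress factor Atf3, and the small Maf proteins Maff and Mafk. They were taken by name from the 19938 genes that had a single symbol in the annotation of the array, and each of the 10 had exactly 1 transcript cluster, the set of probes that stands for a gene. Affymetrix Mouse Gene 1.0 ST arrays gave their mRNA levels in MLE15 cells, a murine lung epithelial line from tumors of mice in which the human promoter of surfactant protein C drives simian virus large T antigen, which every line here thus carries. There were 3 lines transduced with a mix of Nkx2-1 shRNAs in the pLKO.1 lentivirus (Nkx2-1-shRNA lines) and 3 lines that received the empty pLKO.1 vector (control lines), all selected with puromycin and measured on 1 array each. The labels name the controls as empty vector, whereas the paper describes lentivirus that expresses a non-silencing control. Which of these was used cannot be told from the labels and the paper. The labels give a time of 48 h for all lines, while the methods describe independently transduced stable lines expanded from frozen stocks.

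AP-1 is a dimer of basic leucine zipper proteins. Jun proteins pair with each other or with Fos proteins, whereas Fos proteins need a Jun partner, and the dimers bind the motif TGANTCA. Fos, Fosb, Jun, Junb and Atf3 are immediate-early genes, transcribed within minutes of growth factor or stress signals that run through the MAP kinases, while Fosl1 and Fosl2 usually follow later. Small Maf proteins have a basic leucine zipper but no activation domain. They pair with CNC factors such as Nrf2 (gene Nfe2l2) on antioxidant response elements of stress genes, or with each other as repressors. In epithelia AP-1 is known for its part in proliferation, wound repair, matrix proteases and squamous differentiation.

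The promoters of these genes are shown because most of the 10 mRNAs moved in the same direction, and the sequences give what their start regions do and do not share. RefSeq gave 11 promoter sequences for 9 of the genes (GRCm38.p6), 3 of them for Maff; Fosl1 had none in the table used. Below are the 120 bases just before the start for 6 of the 7 genes with a match to TGACG, the core of the cyclic AMP response element (CRE), or to the related TGACATCA in that stretch, with the matches in capitals. The stretch of Fosb, the remaining one, runs into the annotated gene and is not shown, and that of Maff lies before its second listed start, inside the gene.
Fos, chr12:85473770-85473889, plus strand: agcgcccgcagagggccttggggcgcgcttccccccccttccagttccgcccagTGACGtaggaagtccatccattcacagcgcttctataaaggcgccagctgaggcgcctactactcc
Jun, chr4:95052223-95052342, minus strand: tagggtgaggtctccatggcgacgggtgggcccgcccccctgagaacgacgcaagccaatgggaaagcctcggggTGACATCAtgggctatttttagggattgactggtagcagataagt
Junb, chr8:84978749-84978868, minus strand: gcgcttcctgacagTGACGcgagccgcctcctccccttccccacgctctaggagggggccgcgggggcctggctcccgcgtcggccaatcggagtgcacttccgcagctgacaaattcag
Atf3, chr1:191183334-191183453, minus strand: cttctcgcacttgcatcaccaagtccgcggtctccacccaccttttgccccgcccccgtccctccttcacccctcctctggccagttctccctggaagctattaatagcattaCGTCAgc
Maff, chr15:79347400-79347519, plus strand: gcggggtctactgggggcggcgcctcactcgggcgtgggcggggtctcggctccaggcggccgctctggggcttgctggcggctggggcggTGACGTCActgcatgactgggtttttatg
Mafk, chr5:139791416-139791535, plus strand: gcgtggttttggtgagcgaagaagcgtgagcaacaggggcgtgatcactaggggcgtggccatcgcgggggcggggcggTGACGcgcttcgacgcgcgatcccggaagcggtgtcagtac
The CRE core TGACG, on either strand, was found in the 250 bases before the start of 6 of the 9 genes (Fos, Fosb, Junb, Atf3, Maff and Mafk). Counted by promoter, it was in 7 of the 11, and in 17.8% of all 32851 promoters of that length. The full CRE, TGACGTCA, which overlaps this core, was present only in the Maff promoter shown, 29 bases before the start (1.55% of all promoters). Jun and another of the Maff promoters held TGACATCA, the variant AP-1 site known from the Jun promoter, 45 bases before the start in both (2.93% of all promoters). The AP-1 motif TGANTCA was found in none of the 11 promoters, against 6.75% of all. CAAG, the core that NKX2-1 binds, was found in 8 of the 9 genes, all but Mafk, and in 10 of the 11 promoters, but also in 86.6% of all promoters. TGACG and TGACATCA were added to the search after the sequences had been seen, and a match is a description of letters only. The core lay 60 bases before the listed start of Fosb. The gene that fell (Fosb) and the one that was not called (Mafk) carried TGACG as well.

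Expression values are on the log2 scale throughout, so that a difference of 1 is a doubling. The targeted gene, Nkx2-1, measured 7.91, 7.98 and 7.83 in Nkx2-1-shRNA lines, against 8.61, 8.61 and 8.59 in control lines, and was at 61.8% of control (adjusted p = 0.00155; 0.0550 with a test for unequal variances). Arrays of the same group correlated at 0.991 to 0.994 and arrays of different groups at 0.979 to 0.983. The epithelial gene Cdh1 was high in both groups (10.99 ± 0.056 in Nkx2-1-shRNA and 11.02 ± 0.016 in control lines; SD, n = 3). The surfactant gene Sftpc was at 4.08 ± 0.22 in Nkx2-1-shRNA lines, below the background limit of 4.34, and at 7.73 ± 0.45 in control lines. Of all 12 lung epithelium markers, 4 were called higher in Nkx2-1-shRNA lines (Sftpd, Napsa, Krt18 and Krt19, by 0.44 to 1.19 on the log2 scale), 3 lower (Sftpc, Sftpa1 and Abca3) and 5 not called, with a median log2 fold change of 0.13. The shares were 33.3% higher and 25% lower, against 7.61% and 9.24% of all transcript clusters. Markers beyond Sftpc and Cdh1 were named after their values had been seen. Of the markers of other cells, Ptprc of leukocytes (3.26 in Nkx2-1-shRNA and 3.47 in control lines) and Pecam1 of endothelium (3.65 in Nkx2-1-shRNA and 3.57 in control lines) lay below that limit. The fibroblast gene Col1a1 was at 5.90 in Nkx2-1-shRNA and 5.81 in control lines (adjusted p = 0.607). Of 12 fibroblast, 9 leukocyte and 10 endothelial markers, 4, 7 and 4 were below the limit in both groups, and 1, 1 and 3 differed. Summed over each list, the log2 levels were 52.52 to 53.27 in Nkx2-1-shRNA and 51.01 to 52.66 in control lines for fibroblasts, 35.41 to 36.74 in Nkx2-1-shRNA and 35.70 to 37.26 in control lines for leukocytes, and 41.97 to 43.53 in Nkx2-1-shRNA and 44.01 to 45.26 in control lines for endothelium. The part of other cells in the results was not tested.

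Of the 10 genes, 8 were higher in Nkx2-1-shRNA lines, 1 (Fosb) was lower and 1 (Mafk) was not called, at an adjusted p under 0.05 by limma over all 35557 transcript clusters. RNA came from whole cultures, in which fewer expressing cells and less RNA per cell cannot be told apart. Over all transcript clusters 7.61% were called higher and 9.24% lower. Among the 13589 single-symbol genes above the background limit in at least 1 group, as all 10 were, the shares were 15.3% and 13.9%. The median log2 fold change (Nkx2-1-shRNA over control) of the 10 was 0.62, against −0.029 for all transcript clusters. Since the 10 genes were chosen with earlier results of these data known, these contrasts are a description only. For the 8 genes every Nkx2-1-shRNA line lay above every control line, a pattern shown by 15.1% of all transcript clusters. For Fosb the order was the opposite (19.8% of all; 34.9% in either direction). For each of these 9 genes an exact two-sided permutation test of 3 lines against 3 gave p = 0.1, the smallest p that this design allows. The rises were of modest size, from 1.35-fold (Jund) to 2.16-fold (Fos). By the limma values, 0 of the 10 met the stricter threshold of the study (adjusted p under 0.0005 and a log2 change over 0.6 in size). Of all transcript clusters 0.804% passed it as higher and 0.456% as lower. The paper's own test selected more genes at that threshold, so this 0 does not tell which genes the study itself selected. When limma was run only on transcript clusters of 1 symbol, the adjusted p was 2.94e-05 for Fos, 0.000321 for Jun and 2.49e-05 for Atf3. For the other genes it stayed above 0.0005. A test for unequal variances left Jun (adjusted p 0.05 after rounding) and Atf3 (0.0167) as the called genes. Among those lost, Fos had an adjusted p of 0.0663, Fosl2 of 0.106, Jund of 0.0998 and Maff of 0.0931. The p-values measure the spread between lines that the methods describe as independently transduced.

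**Figure D1:**
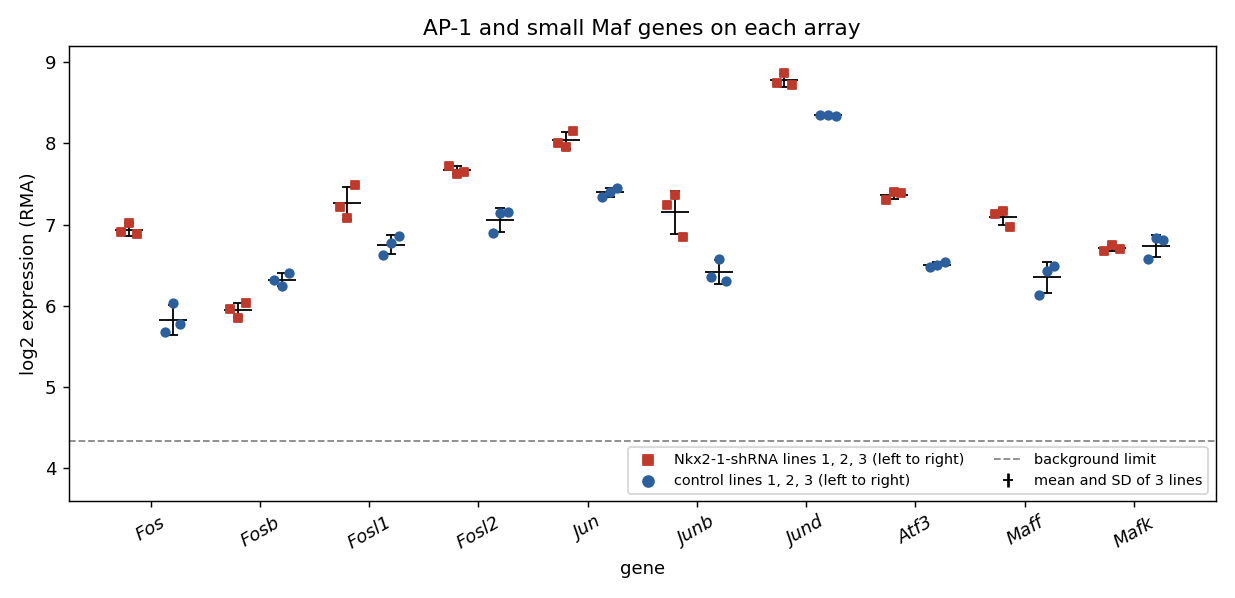
Log2 expression (vertical axis) of the 10 genes (horizontal axis) on each array, with Nkx2-1-shRNA lines as red squares, control lines as blue circles, the mean and SD of 3 lines in black and the background limit of 4.34 as a dashed line. The groups are apart for every gene but Mafk, and Fosb is the one gene whose Nkx2-1-shRNA lines lie below the control lines.

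Among the Fos subfamily, Fos rose the most. Fos (transcript cluster 10397346, chr12:85473890-85477274), the prototype immediate-early partner of Jun, measured 6.91, 7.03 and 6.89 in Nkx2-1-shRNA lines, against 5.67, 6.04 and 5.78 in control lines. The lowest Nkx2-1-shRNA line was 0.85 above the highest control line. Its log2 fold change was 1.11 (SE 0.11, 95% confidence interval 0.84 to 1.38, adjusted p = 0.00117), or 2.16-fold.

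Fosb (transcript cluster 10560481, chr7:19302696-19310118), the closest relative of Fos and like it an immediate-early gene, moved the other way. It measured 5.96, 5.85 and 6.03 in Nkx2-1-shRNA lines, against 6.32, 6.24 and 6.40 in control lines. The groups did not overlap, with a gap of 0.21. Fosb was at 77.2% of control and fell by 0.37 on the log2 scale (SE 0.087, 95% confidence interval −0.58 to −0.17, adjusted p = 0.0286). The changes of Fos and Fosb differed by 1.48 (SE 0.17). Every Nkx2-1-shRNA line was above the control lines for Fos and below them for Fosb, so their within-array difference had to separate the groups. Its exact permutation test (two-sided, p = 0.1, the smallest possible) thus adds nothing to the 2 single results. The call of Fosb ended with median centring (−0.29, adjusted p = 0.0545) and without any 1 line except control line 2. Without Nkx2-1-shRNA lines 1, 2 and 3 in turn the adjusted p was 0.0892, 0.0924 and 0.0537, and without control lines 1 and 3 it was 0.0740 and 0.0702.

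Fosl1 and Fosl2 encode the Fos-related antigens, which have no strong activation domain of the Fos type. Fosl2 (transcript cluster 10520862, chr5:32136472-32157840) measured 7.73, 7.63 and 7.65 in Nkx2-1-shRNA lines, against 6.89, 7.14 and 7.16 in control lines. Control line 1 was the low one. Fosl2 rose by 0.61 (SE 0.097, adjusted p = 0.00719), or 1.52-fold. Fosl1 (transcript cluster 10460585, chr19:5447698-5455938) had 7.22, 7.09 and 7.49 in Nkx2-1-shRNA lines, against 6.63, 6.78 and 6.86 in control lines. Its spread was the widest of the subfamily among the Nkx2-1-shRNA lines, line 3 being the high one. The log2 fold change of Fosl1 was 0.51 (SE 0.125, adjusted p = 0.0345), or 1.42-fold. The call of Fosl1 held without Nkx2-1-shRNA line 2 and ended without any other line. The adjusted p was 0.0871 and 0.0798 without Nkx2-1-shRNA lines 1 and 3, and 0.0978, 0.0810 and 0.0555 without control lines 1, 2 and 3. Without Nkx2-1-shRNA line 3 the log2 fold change was 0.40.

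All 3 genes of the Jun subfamily rose. Jun (transcript cluster 10514466, chr4:95049036-95052222), the partner through which Fos proteins reach DNA, measured 8.00, 7.96 and 8.15 in Nkx2-1-shRNA lines, against 7.35, 7.40 and 7.45 in control lines. The gap between the groups was 0.51, more than the range within either group (0.19 among Nkx2-1-shRNA and 0.10 among control lines). The log2 fold change of Jun was 0.64 (SE 0.085, 95% confidence interval 0.44 to 0.84, adjusted p = 0.00331), or 1.56-fold. Jun is among the predicted targets of miR-200c that the study listed, and the mature microRNA is shown here with its seed, bases 2 to 8, in capitals.
mmu-miR-200c-3p, chr6:124718324-124718346, minus strand: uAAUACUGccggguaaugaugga
MicroRNAs were not analysed here, so this entry is given as annotation only.

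Junb (transcript cluster 10580282, chr8:84976909-84978748), which activates fewer promoters than Jun and can oppose it, measured 7.25, 7.36 and 6.85 in Nkx2-1-shRNA lines, against 6.35, 6.58 and 6.31 in control lines. Nkx2-1-shRNA line 3 was the low one and stood 0.27 above the highest control line. Junb rose by 0.74 on the log2 scale (SE 0.15, adjusted p = 0.0178), or 1.67-fold, and the SE was the largest of the 10 genes. The call ended without Nkx2-1-shRNA line 1 or 2 (adjusted p = 0.0667 and 0.0568) and without control line 1 or 3 (0.0570 and 0.0586). It also ended with the methods' t-test (adjusted p = 0.0844), as did that of Fosl1 (0.107) and Fosb (0.0515).

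Jund (transcript cluster 10572456, chr8:70697739-70700616), the member that most cells express steadily, measured 8.74, 8.87 and 8.72 in Nkx2-1-shRNA lines, against 8.35, 8.35 and 8.33 in control lines. The control lines were within 0.018 of each other. The log2 fold change of 0.43 (SE 0.077, adjusted p = 0.0108), or 1.35-fold, was the smallest of the 8 rises.

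Atf3 (transcript cluster 10361091, chr1:191170296-191183333), a stress-induced factor of the ATF/CREB family that pairs with Jun or with itself, was the most uniform of the 10 genes by the SE of its change. It measured 7.31, 7.40 and 7.39 in Nkx2-1-shRNA lines, against 6.47, 6.51 and 6.55 in control lines. The gap between the groups was 0.76, where the lines of either group differed by at most 0.10. Atf3 rose 1.81-fold, a log2 fold change of 0.86 (SE 0.074, 95% confidence interval 0.68 to 1.03, adjusted p = 0.000634). At an adjusted p under 0.05 its call held under each of the 16 other settings tried (adjusted p from 2.1e-05 to 0.0167), as did that of Jun.

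Of the 2 small Maf genes, Maff rose and Mafk was not called. Maff (transcript cluster 10425283, chr15:79346621-79359078) measured 7.13, 7.17 and 6.98 in Nkx2-1-shRNA lines, against 6.13, 6.43 and 6.49 in control lines. Control line 1 was again the low one. Maff rose by 0.74 (SE 0.12, adjusted p = 0.00691), or 1.68-fold. Mafk (transcript cluster 10526961, chr5:139791536-139802653) had 6.68, 6.75 and 6.70 in Nkx2-1-shRNA lines, against 6.58, 6.83 and 6.81 in control lines, so that all Nkx2-1-shRNA lines lay within the range of the control lines. Its log2 fold change was −0.031 (95% confidence interval −0.25 to 0.19, adjusted p = 0.875; exact permutation test, p = 0.8), and its sign changed with the scaling (0.05 after median centring). The within-array difference between Maff and Mafk was larger in every Nkx2-1-shRNA line than in any control line, and the 2 changes differed by 0.78 (SE 0.067; exact permutation test, two-sided, p = 0.1). Both comparisons of a pair of genes were chosen after the values had been seen. Mafg, the remaining small Maf gene, averaged 8.10 ± 0.098 in Nkx2-1-shRNA lines and 8.07 ± 0.19 in control lines (SD, n = 3; adjusted p = 0.905; 95% confidence interval of the log2 fold change −0.25 to 0.30).

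Within the control group, line 1 had the lowest value of the 3 for 7 of the 10 genes and the highest for none. Within the Nkx2-1-shRNA group, line 2 was the highest for 6 genes and the lowest for 4. Without control line 1, 6 of the 8 rises were still called, with those of Fosl1 and Junb lost, and the log2 fold change of Fos was 1.03 (adjusted p = 0.00488).

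The genes lie on 8 chromosomes, and the chromosomal surroundings of some of them differed between the groups as well. Fos is on chromosome 12, where the 20 nearest genes above background, 10 on each side, had a median log2 fold change of −0.45. Of these 20, 12 were called lower and 2 higher. Among all single-symbol genes above background 13.9% were called lower and 15.3% higher. Fos thus rose among mostly lower neighbors. Junb on chromosome 8 rose among neighbors with a median of −0.24, of which 7 were called lower and none higher by limma. Fosl2 on chromosome 5 was different, since its neighbors had a median of 0.43 and 10 of the 20 were called higher. Its own change of 0.61 lay inside the range of these neighbors (−0.41 to 0.88), and their part in it was not tested. For the other 7 genes the median of the neighbors was between −0.12 (Fosb) and 0.07 (Fosl1), and at most 3 were called in either direction.

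**Figure D2:**
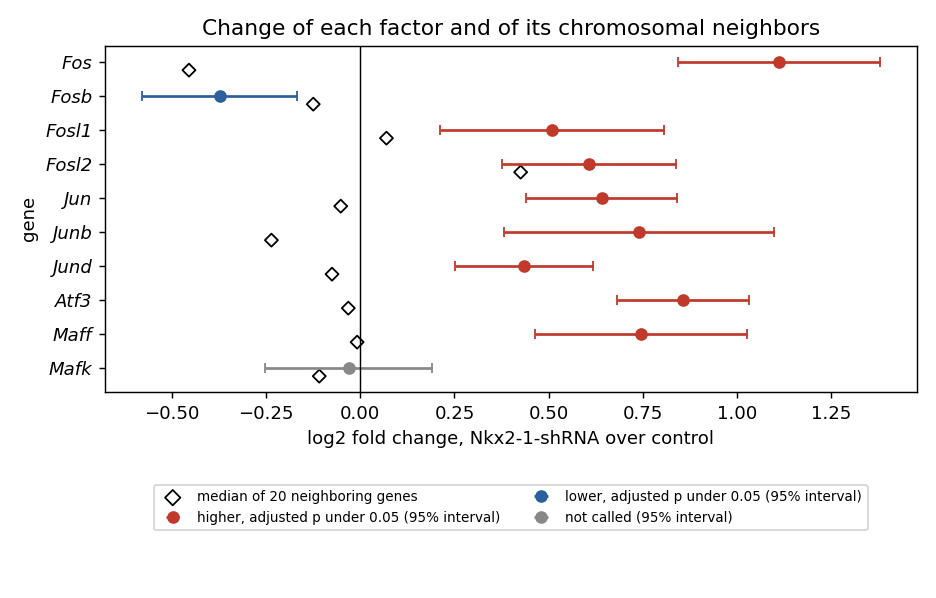
Log2 fold change (horizontal axis, Nkx2-1-shRNA over control, n = 3 lines each) of the 10 genes (vertical axis), as points with 95% confidence intervals, red for higher, blue for lower and gray for not called. Open diamonds show the median of the 20 neighboring genes, which lies near the gene's own value for Fosl2 (0.43 and 0.61) and on the other side of 0 for Fos (−0.45 and 1.11).

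Of 28 measured genes for MAP kinases and serum response factors, which regulate AP-1 genes, 5 rose, 1 fell and 22 did not pass. The median log2 fold change of the 28 was 0.0063. The share called higher, 17.9%, was near the 15.3% of single-symbol genes above background, and with a test for unequal variances 1 was called higher and 0 lower. Elk3, a ternary complex factor that binds the Fos promoter with SRF, rose by 0.88 (adjusted p = 0.00222), and Map3k2, a kinase upstream of JNK and ERK5, by 0.85 (adjusted p = 0.000995). Map2k1, the kinase that activates ERK, rose by 0.45 (adjusted p = 0.0303; 0.0845 with the methods' t-test). Srf itself fell by 0.43 (adjusted p = 0.0139). The calls of the last pair ended without Nkx2-1-shRNA line 1 (adjusted p = 0.108 for Map2k1 and 0.0618 for Srf) or line 2 (0.0980 for Map2k1 and 0.0518 for Srf), and that of Map2k1 also without control line 1 or 3 (0.0866 and 0.0826). Mapk8 and Mapk9, JNK genes, were not called, with log2 fold changes of −0.016 and 0.08; they were named after their values had been seen.

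Of 10 phosphatases that switch MAP kinases off, 3 rose and 1 fell (1 and 0 with a test for unequal variances). The shares were 30% higher and 10% lower, against 15.3% and 13.9% of single-symbol genes above background. Dusp16, which acts on JNK, rose by 1.16 (adjusted p = 0.000866), Dusp7 by 0.83 (adjusted p = 0.00190) and Dusp9 by 0.51 (adjusted p = 0.0146), while Dusp4 fell by 0.66 (adjusted p = 0.00527). The call of Dusp9 ended without Nkx2-1-shRNA line 1 or 2 (adjusted p = 0.0572 and 0.0503). Dusp1, the phosphatase gene that is itself immediate-early, averaged 8.42 ± 0.052 in Nkx2-1-shRNA lines and 8.34 ± 0.25 in control lines (adjusted p = 0.725).

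Of 30 other immediate-early genes, 9 rose, 3 fell and 18 did not pass, with a median log2 fold change of 0.18. The methods' t-test called 5 higher and 1 lower, and a test for unequal variances 3 higher and 1 lower. Egr1, the zinc finger factor usually induced together with Fos, averaged 8.17 ± 0.13 in Nkx2-1-shRNA lines and 7.65 ± 0.080 in control lines (log2 fold change 0.52, adjusted p = 0.0118; 0.0505 without Nkx2-1-shRNA line 1). The Krüppel-like factors Klf6 and Klf10 rose by 1.26 (adjusted p = 0.000144) and 0.86 (adjusted p = 0.00137), the survival gene Ier3 by 1.05 (adjusted p = 0.00513) and Myc by 0.95 (adjusted p = 0.000945). The genes that fell were Nr4a3 (−0.84, adjusted p = 0.00163), Btg2 (−0.56, adjusted p = 0.0144) and Egr2 (−0.34, adjusted p = 0.047). They were named after their values had been seen, and Nr4a3 was below the background limit in Nkx2-1-shRNA lines. The share called higher, 30%, was below that of the 10 genes (80%) and above that of single-symbol genes above background (15.3%). The share called lower was 10%, against 13.9% of single-symbol genes above background. These shares were not tested against each other.

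Of 20 other basic leucine zipper factors that can pair with AP-1 proteins or bind CRE-type sites, 8 rose, 3 fell and 9 did not pass (5 higher and 1 lower with a test for unequal variances). The shares were 40% higher and 15% lower, against 15.3% and 13.9% of single-symbol genes above background. The largest changes were those of the endoplasmic reticulum stress factor Atf6 (0.82, adjusted p = 0.00113), Cebpg (0.81, adjusted p = 0.00167), the Jun partner Atf2 (−0.74, adjusted p = 0.00201) and Creb5 (0.71, adjusted p = 0.00442). Of 11 CNC factors, large Mafs and their regulators, with Mafg among them, 2 rose and 2 fell (1 and 1 with a test for unequal variances). Each share was 18.2%, near those of single-symbol genes above background. Nfe2l1, which encodes the CNC factor Nrf1, rose by 0.87 (adjusted p = 0.000641), and Nfe2l3 fell by 0.77 (adjusted p = 0.0124; 0.0657 with the methods' t-test). The large Maf gene Maf rose by 0.40 (adjusted p = 0.0162), but not without Nkx2-1-shRNA line 1 or 3 (adjusted p = 0.0698 and 0.0598) or control line 2 (0.0543). Nfe2l2, which encodes Nrf2, fell by 0.31 (adjusted p = 0.0302). Its call ended with median centring (adjusted p = 0.0808), with replicate number as a block (0.0709) and without any 1 line except control line 3 (adjusted p = 0.103, 0.0972 and 0.0740 without Nkx2-1-shRNA lines 1, 2 and 3, and 0.0868 and 0.0709 without control lines 1 and 2). Of 9 measured genes for the turnover or repression of Jun and Fos proteins, such as Fbxw7, Itch and Men1, none was called by limma; 2 had an unadjusted p under 0.05 and 1 was called higher by the methods' t-test and 1 after median centring.

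**Figure D3:**
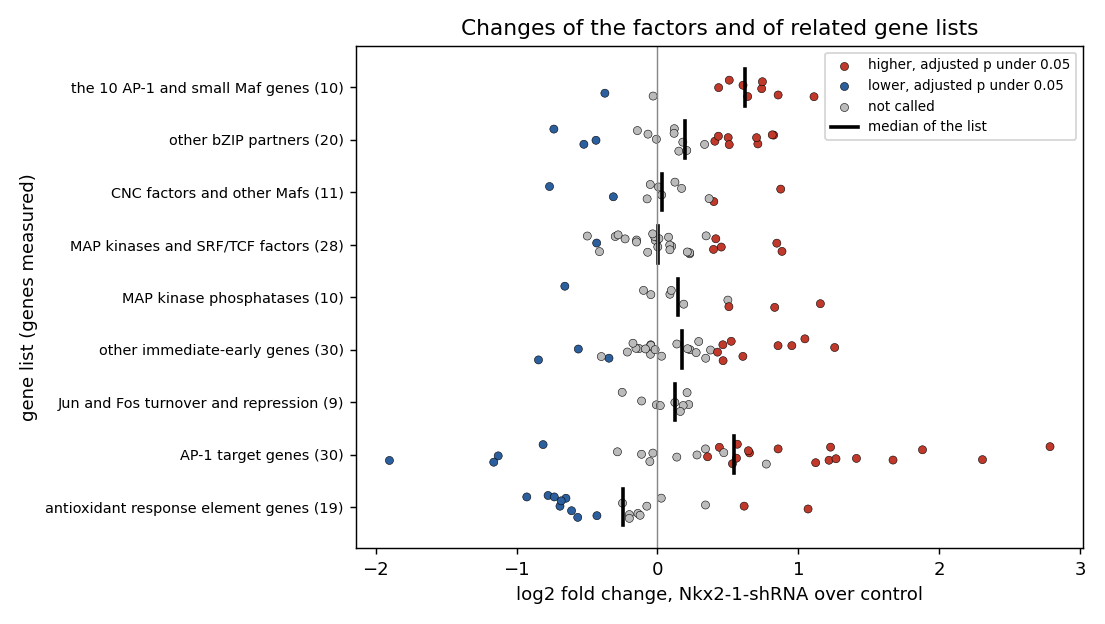
Log2 fold changes (horizontal axis, Nkx2-1-shRNA over control) of the 10 genes and of 8 related gene lists (vertical axis, with the number of genes measured), 1 point per gene, red for higher, blue for lower and gray for not called, with the median of each list as a bar. The 10 genes and the AP-1 target genes have medians of 0.62 and 0.55, and the antioxidant response element genes a median of −0.25.

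Of 30 measured genes known as AP-1 targets in epithelial and other cells, 17 rose (56.7%), 4 fell (13.3%) and 9 did not pass, with a median log2 fold change of 0.55. Over all transcript clusters 7.61% were called higher and 9.24% lower, and among single-symbol genes above background 15.3% were higher and 13.9% lower. With a test for unequal variances 6 of the targets were called higher and 2 lower, and at the study's threshold 5 higher and 0 lower. The collagenase gene Mmp13, a classical AP-1 target, averaged 9.73 ± 0.10 in Nkx2-1-shRNA lines and 6.95 ± 0.23 in control lines, a log2 fold change of 2.79 (adjusted p = 8.0e-05) or 6.90-fold. The cytokine gene Il24 rose by 2.31 (adjusted p = 0.000282) and the cornified envelope gene Sprr1a by 1.88 (adjusted p = 0.000678). Mt2, a metallothionein gene whose human counterpart has AP-1 sites, fell by 1.90 (adjusted p = 0.00862; 0.104 with a test for unequal variances and 0.0680 with the methods' t-test). The other genes that fell were Mt1, Ivl and Sprr2b, the first a metallothionein and the others of the cornified envelope; Sprr2b was below the background limit in Nkx2-1-shRNA lines. Mt1, Ivl and Sprr2b are named beyond the naming rule, after their values had been seen. No binding of AP-1 was measured, and the list was chosen with earlier results of these data known.

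**Figure D4:**
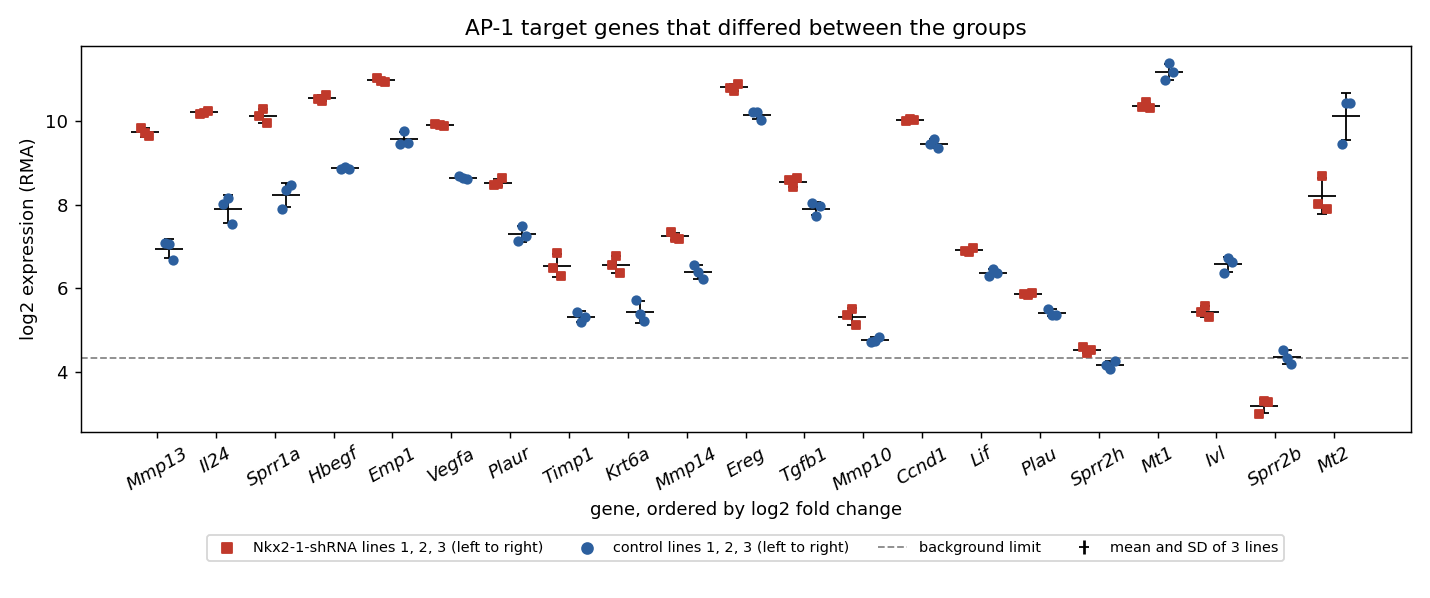
Log2 expression (vertical axis) of the 21 AP-1 target genes called at an adjusted p under 0.05 (horizontal axis, ordered by log2 fold change) on each array, with Nkx2-1-shRNA lines as red squares, control lines as blue circles, the mean and SD of 3 lines and the background limit of 4.34 as a dashed line. The 17 genes on the left, from Mmp13 (2.79), were higher and the 4 on the right, to Mt2 (−1.90), lower.

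Small Maf and CNC dimers bind antioxidant response elements. Of 19 measured genes with such elements, 2 rose, 9 fell (47.4%, against 9.24% of all transcript clusters and 13.9% of single-symbol genes above background) and 8 did not pass, with a median log2 fold change of −0.25. A test for unequal variances called 2 of the 19 higher and 2 lower, against 832 higher and 760 lower of all 35557 transcript clusters. At the study's threshold 1 was higher and 0 lower, against 286 and 162 of all. So few genes pass there that 0 of 19 does not tell whether lower calls were in excess. The cystine transporter gene Slc7a11, also a target of Atf4, rose by 1.07 (adjusted p = 0.000401). Gclm, a subunit of glutamate-cysteine ligase, fell by 0.93 (adjusted p = 0.000691), the pentose phosphate gene Pgd by 0.78 (adjusted p = 0.00255) and the glutathione transferase gene Gstm1 by 0.73 (adjusted p = 0.00652). With a test for unequal variances the calls of Maf, Nfe2l3, Elk3, Map2k1, Srf, Dusp4, Dusp9, Dusp16, Egr1, Ier3, Il24, Mt2, Pgd and Gstm1 ended, with adjusted p up to 0.169.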

How the data were processed

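Total RNA of 6 MLE15 lines, 3 Nkx2-1-shRNA and 3 control, was profiled on 6 Mouse Gene 1.0 ST arrays (Affymetrix). With Affymetrix Expression Console (version 1.1) the authors ran Robust Multi-Array Analysis, which corrects background, normalizes by quantiles and summarizes the probes of each transcript cluster, and deposited log2 values; these were used as they stand. No counts or scanner files were used, so precision rests on 3 arrays per group, and a bulk value does not tell fewer expressing cells from less RNA per cell.

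The test was limma 3.58.1 under R 4.3.3 (lmFit, eBayes, all 6 arrays, no covariate, 4 residual and 2.86 prior degrees of freedom), with Benjamini-Hochberg adjustment over all 35557 transcript clusters and calls at an adjusted p under 0.05. It was tried on simulated data. Symbols came from the platform annotation (21789 transcript clusters with 1 symbol, 1621 with several, 12147 with none), and where a gene had more than 1, that of highest mean was taken. The background limit is the level under which 95% of 1263 chemosensory receptor transcript clusters lay. Of 171 genes in 8 pathway lists, 157 had a single-symbol transcript cluster; the others were not analysed here. Named were the 10 genes, the targeted gene, up to 4 called genes of each list with the largest change, Egr1, Dusp1, Mafg and 5 cell type markers; others are said to be chosen later. The 10 genes and the lists were chosen with earlier results of these data known. Promoters and the microRNA are from RefSeq (GRCm38.p6). Same-numbered lines were checked for pairing by the correlation of their deviations from the group means (0.058, 0.14 and −0.034). With 3 lines per group these values cannot decide whether the lines were paired. Of the 10 genes, 9 had a promoter entry.

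As alternatives, calls were repeated with the t-test of the methods and one for unequal variances (same adjustment), array weights, a trended and robust prior, median centring or quantile normalization, only transcript clusters above background or of 1 symbol, a block for replicate number, without each line and on the mean over a gene's transcript clusters. They were also repeated at the study's threshold, applied to the limma values.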

Additional observations from a re-analysis of the deposited data

How the results depend on the processing

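Across the 10 genes and 16 alternatives at an adjusted p under 0.05, 131 of 160 results kept their direction and side of the threshold, 25 kept the direction but were no longer called, and 4, all of Mafk, changed sign. Of the 8 genes called higher, 6 were called by the methods' t-test and 2 (Jun and Atf3) by a test for unequal variances. Without any 1 line 6 to 7 were called. At the study's threshold, applied to the limma values over all transcript clusters, there were 0. The 1 gene called lower (Fosb) was called neither by these tests, nor after median centring, nor at the study's threshold (0 in each case), and 0 or 1 gene was called lower without any 1 line. The limits are those of 3 arrays per group: the test for unequal variances estimates each spread from so few values, and it called 832 transcript clusters higher and 760 lower, against 2705 and 3284 by limma. The methods' t-test called 1983 lower, the study's threshold 286 higher and 162 lower, and fits without 1 line 1690 to 2225 higher and 1815 to 2750 lower; with 1 line left out fewer samples entered the fit. With replicate number as a block (replicate block), 2269 and 2775 were called and the counts of 8 and 1 of the 10 genes stayed. Of the other genes named by the naming rule only Nfe2l2 lost its call. The lines share only a number, and 2 of 3 Nkx2-1-shRNA lines deviated most like the control line of their own number. Median centring moved the median of all transcript clusters by 0.08 and turned the split of calls to 3484 higher and 2376 lower; it gave log2 fold changes of 0.05 for Mafk and 0.049 for Cdh1, and quantile normalization 0.0024 for Mafk. Without 1 line the values ran from −0.11 to 0.016 for Mafk, from −0.053 to 0.18 for Dusp1, from −0.075 to 0.11 for Mafg and from −0.051 to 1e-04 for Cdh1, none of them called. The cause of these changes was not tested.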
